A study of Homo sapiens with 4 samples.

Results

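Messenger RNA levels of 10 genes that mark astrocytes and neural progenitor cells were examined: GFAP, NES, VIM, SOX2, SOX9, S100B, SLC1A3, OLIG2, PROM1 and AQP4. They were chosen by name, with no threshold on their values but with earlier results of these data known. Each was found once among the 40205 rows of the expression table. Of the 10, 7 reached 1 RPKM (reads scaled to gene length and library size) in at least 1 library and so were among the 16098 genes tested, and S100B, PROM1 and AQP4 were not.

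The samples were 4 libraries of poly(A) RNA from the human glioblastoma cell lines U87MG and U251, both grown in medium with fetal bovine serum. The 4 groups were U87MG with a control hairpin (sh-NC, labelled WT), U87MG with a hairpin against SRSF1 (sh-SRSF1, labelled KD), U251 with the control hairpin and U251 with the SRSF1 hairpin. All 4 groups had therefore received a lentivirus, at a multiplicity of infection of 20, and puromycin selection for 1 week. Each group was 1 library, made from a selected stable line.

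In brain tissue, astrocytes carry an intermediate filament network of GFAP and vimentin, take up synaptic glutamate through SLC1A3, and move water through AQP4 at their end-feet. Neural progenitor cells carry nestin and vimentin filaments and depend on the transcription factors SOX2 and SOX9. Glioblastomas express many of these genes, and the same names serve as markers of glial differentiation and of stem-like tumour cells.

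SOX2 and NES had the largest differences between the lines among the members on the log2(RPKM + 1) scale, so the 250 bases before the RefSeq start of each are shown (GRCh38.p14, 5′ to 3′ in the sense of the gene). Capitals mark matches, on either strand, to the 4 motifs searched. These were the TATA box as TATAAA, the GC box as GGGCGG, the CCAAT box by its name, and ACAAT, letters at the core of many SOX motifs. A GGGCGG on the opposite strand reads CCGCCC here, and CCAAT there reads ATTGG.
SOX2, chr3:181711675-181711924, plus strand: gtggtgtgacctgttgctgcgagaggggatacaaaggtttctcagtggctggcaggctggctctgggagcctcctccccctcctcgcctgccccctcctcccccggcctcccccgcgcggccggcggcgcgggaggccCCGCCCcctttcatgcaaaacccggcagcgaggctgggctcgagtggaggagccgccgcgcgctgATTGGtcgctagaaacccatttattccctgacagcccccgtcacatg
NES, chr1:156677408-156677657, minus strand: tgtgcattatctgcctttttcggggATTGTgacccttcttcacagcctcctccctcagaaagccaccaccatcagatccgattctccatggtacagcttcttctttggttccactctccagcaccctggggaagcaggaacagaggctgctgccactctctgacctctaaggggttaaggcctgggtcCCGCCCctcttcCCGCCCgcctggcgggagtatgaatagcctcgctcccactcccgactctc
The SOX2 window held 1 match to GGGCGG, 112 bases before the start, and 1 match to CCAAT, 47 bases before it, both on the opposite strand. The NES window held GGGCGG on the opposite strand at 62 and 50 bases before the start and ACAAT on the opposite strand at 225 bases before it. No match to TATAAA was found in either window. Among 35116 such windows of the RefSeq table, 42.6% held GGGCGG, 32.0% CCAAT, 24.6% ACAAT and 10.7% TATAAA, so these matches are common. The SOX2 window was richer in G and C (68.8%) than the NES window (58.0%, which is also the median of all windows), and held 20 CpG dinucleotides against 8.

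The libraries held 25099799 to 27953878 reads, as recovered from the RPKM steps. SRSF1, the targeted gene, had 88.3 and 14.6 RPKM in U87MG control and knockdown cells, against 109 and 15.8 RPKM in U251. Separate infections are not stated for the libraries, so p-values do not measure the spread between infections. With 1 residual degree of freedom, the error of a gene is the difference of its knockdown to control ratio between the lines, which limma moderates over all genes tested. A response in 1 line only therefore counts as error. Endothelial markers summed to at most 0.498 RPKM and microglial and blood markers to at most 1.594 RPKM in any library. Of the longer lists of these cell types, KDR, a vascular growth factor receptor, was at 2.34 to 7.99 RPKM and CD68, a lysosomal protein of macrophages and other cells, at 8.52 to 111 RPKM. The part of other cell types in the results was not tested. In bulk RNA, fewer cells that express a gene and less RNA per cell cannot be told apart.

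**Figure D1:**
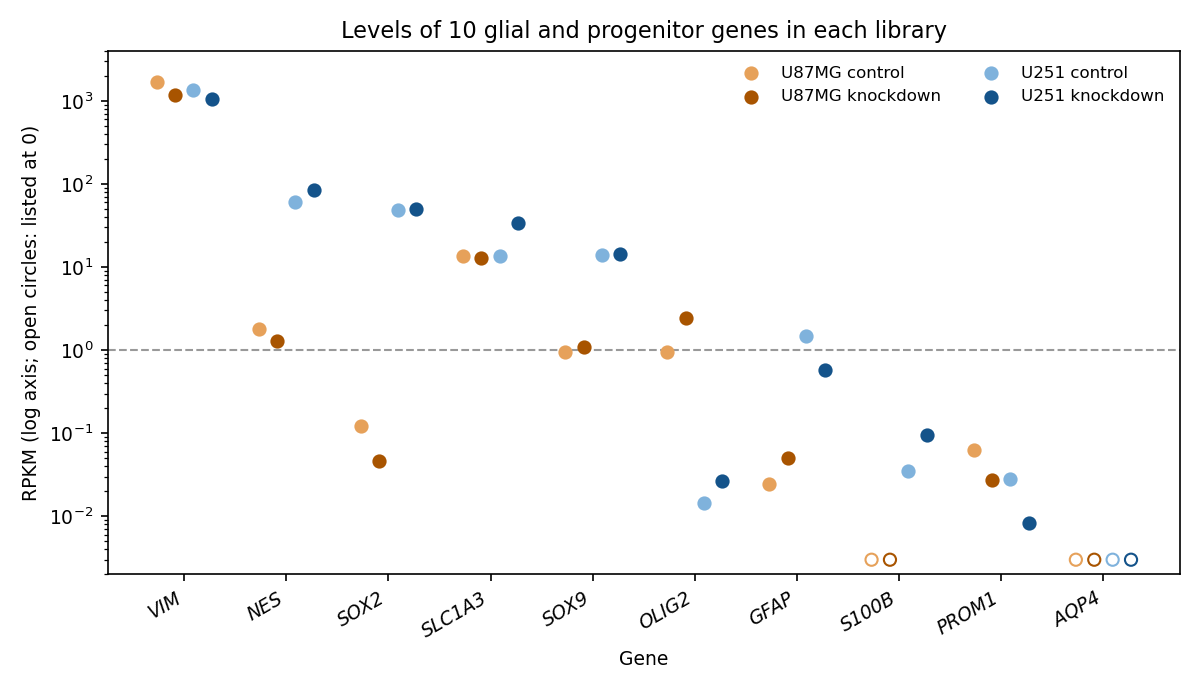
RPKM (vertical, log axis) of the 10 members in each of the 4 libraries, 1 point per library, with open circles at the bottom for genes listed at 0 and a dashed line at 1 RPKM. VIM lies above 1000 RPKM in every library, SOX2, NES and SOX9 lie far higher in both U251 libraries, and AQP4 is listed at 0 in all 4.

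The intermediate filament genes were examined first. VIM, encoding vimentin of mesenchymal, progenitor and astrocytic cells, stood at 1675 and 1158 RPKM in U87MG (control, then knockdown) against 1341 and 1065 RPKM in U251. It ranked between 16 and 41 among all genes of a library, higher than any other member, and the levels of the lines overlapped. NES, encoding nestin, the filament protein of neural stem cells, stood at 1.79 and 1.29 RPKM in U87MG, compared with 61.1 and 83.7 RPKM in U251. Both U251 libraries were far above both U87MG libraries. GFAP, the filament protein of mature astrocytes, was at 0.0246 and 0.0499 RPKM in U87MG, which is 1 and 2 reads, and at 1.47 and 0.580 RPKM in U251, which is 57 and 25 reads. Even in the U251 control GFAP ranked only 13345 by level, so this marker was low in U251 and barely detected in U87MG. By RPKM, nestin exceeded GFAP in all 4 libraries.

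Among the transcription factors, SOX2, which maintains neural stem cells, stood at 0.121 and 0.0460 RPKM in U87MG (8 and 3 reads) and at 47.9 and 49.3 RPKM in U251 (3019 and 3466 reads). The lines were thus widely separated, with U87MG near the limit of detection. SOX9, which directs gliogenesis, stood at 0.937 and 1.10 RPKM in U87MG, compared with 13.9 and 14.4 RPKM in U251, again without overlap. OLIG2, a factor of oligodendrocyte precursors and glioma progenitors, was the member with the opposite order, at 0.936 and 2.46 RPKM in U87MG (67 and 174 reads) and 0.0146 and 0.0263 RPKM in U251 (1 and 2 reads). OLIG2 was therefore low in U87MG and barely detected in U251.

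The genes for membrane and calcium-binding proteins came next. SLC1A3, encoding the glial glutamate transporter GLAST, was at 13.4 and 12.8 RPKM in U87MG, compared with 13.5 and 34.2 RPKM in U251. The U251 knockdown library alone stood apart, and the other 3 lay within 1 RPKM of each other. S100B, a calcium-binding protein of mature astrocytes, had no read in U87MG and 1 and 3 reads (0.0351 and 0.0946 RPKM) in U251. The 3 reads that a count of 0 allows correspond to 0.101 and 0.102 RPKM in these U87MG libraries, so no difference between the lines was detectable. PROM1, encoding the stem cell surface protein CD133, was at 0.0622 and 0.0270 RPKM in U87MG, compared with 0.0279 and 0.00835 RPKM in U251, on 1 to 7 reads. AQP4, the water channel of astrocyte end-feet, was listed at 0 in all 4 libraries. For an AQP4 transcript of 5274 bases, a count of 0 allows 0.0204 to 0.0227 RPKM.

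The order of levels differed between the lines. In the U251 control it ran VIM, NES, SOX2, SOX9, SLC1A3, GFAP, then S100B, PROM1 and OLIG2 on 1 to 3 reads each, and AQP4 at 0. SOX9 (13.9 RPKM) and SLC1A3 (13.5 RPKM) were close neighbours in that order. In the U87MG control VIM was followed by SLC1A3 and NES, and then by SOX9 (0.937 RPKM) and OLIG2 (0.936 RPKM) at the same level. SOX2, PROM1 and GFAP followed there on 8, 7 and 1 reads, and S100B and AQP4 were at 0. NES, VIM and SLC1A3 were the members at 1 RPKM or more in all 4 libraries.

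The levels per library raise the question of which members separated the lines. In U251, SOX2, NES, SOX9 and GFAP were higher than in U87MG, and OLIG2 was lower, by limma with the arm as a covariate (2 libraries per line, adjusted p under 0.05). These are 5 of the 7 members tested, against 48.6% of all 16098 genes. Of all genes tested, 21.6% were higher in U87MG and 27% in U251. A difference between the lines was thus common over the whole table. SOX2 and GFAP reached 1 RPKM only in U251 and OLIG2 only in U87MG, so these 3 entered the test through the line where they are high, and the count of 5 supports nothing by itself. NES, SOX9, VIM and SLC1A3 reached it in both lines. All 5 came with no overlap between the 2 libraries of one line and the 2 of the other. They were picked by this same test, and the share of all genes without overlap was not counted, so this adds no support.

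SOX2 was higher in U251 by 5.52 ± 0.16 (SE) on the log2(RPKM + 1) scale (limma adjusted p = 7.1e-07). That scale understates the difference of a gene at so low a level in U87MG. By recovered reads per depth, the U251 to U87MG ratio of SOX2 was 395 in the controls (95% Clopper-Pearson interval 200.4 to 917) and 1074 in the knockdowns (367 to 5208), intervals that cover counting error only. NES was higher in U251 by 4.84 ± 0.21 (limma adjusted p = 2.9e-06). Its read ratio was 34.1 in the controls (30.2 to 38.7) and 64.9 in the knockdowns (56.2 to 75.5), again with counting error only. Whether the NES ratio differed between the arms was not tested. SOX9 was higher by 2.91 ± 0.16 (limma adjusted p = 9.7e-06), and its read ratios of 14.8 (12.1 to 18.4) and 13.2 (10.9 to 16.1) were similar in the 2 arms.

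GFAP and OLIG2 rested on few reads in one of the lines. GFAP was higher in U251 by 0.93 ± 0.27 (limma adjusted p = 0.022), with a read ratio of 59.7 in the controls (10.3 to 2400) and 11.6 in the knockdowns (2.90 to 101). OLIG2 was lower in U251, by -1.34 ± 0.27 for U251 minus U87MG (limma adjusted p = 0.0049). U87MG exceeded U251 in OLIG2 reads 64.0-fold in the controls (11.1 to 2563) and 93.6-fold in the knockdowns (25.5 to 779). Without a filter on low values the call was lost for both, at a limma adjusted p of 0.073 for GFAP (0.0086 to 0.073 over its alternatives) and 0.057 for OLIG2 (0.0016 to 0.057). GFAP also lost it without the arm as a covariate (0.057).

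VIM and SLC1A3 did not pass the test between the lines. VIM differed by -0.22 ± 0.13 for U251 minus U87MG (limma adjusted p = 0.18), with U251 to U87MG read ratios of 0.800 in the controls and 0.920 in the knockdowns. SLC1A3 differed by 0.68 ± 0.29 (limma adjusted p = 0.086), and its read ratio was 1.01 in the controls (0.938 to 1.09) and 2.67 in the knockdowns (2.51 to 2.84). The control libraries of the 2 lines thus held SLC1A3 at a like level, and the knockdown libraries did not. With only genes of at least 5 RPKM in 1 library tested, SLC1A3 passed (limma adjusted p = 0.048, 0.048 to 0.31 over its alternatives).

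**Figure D2:**
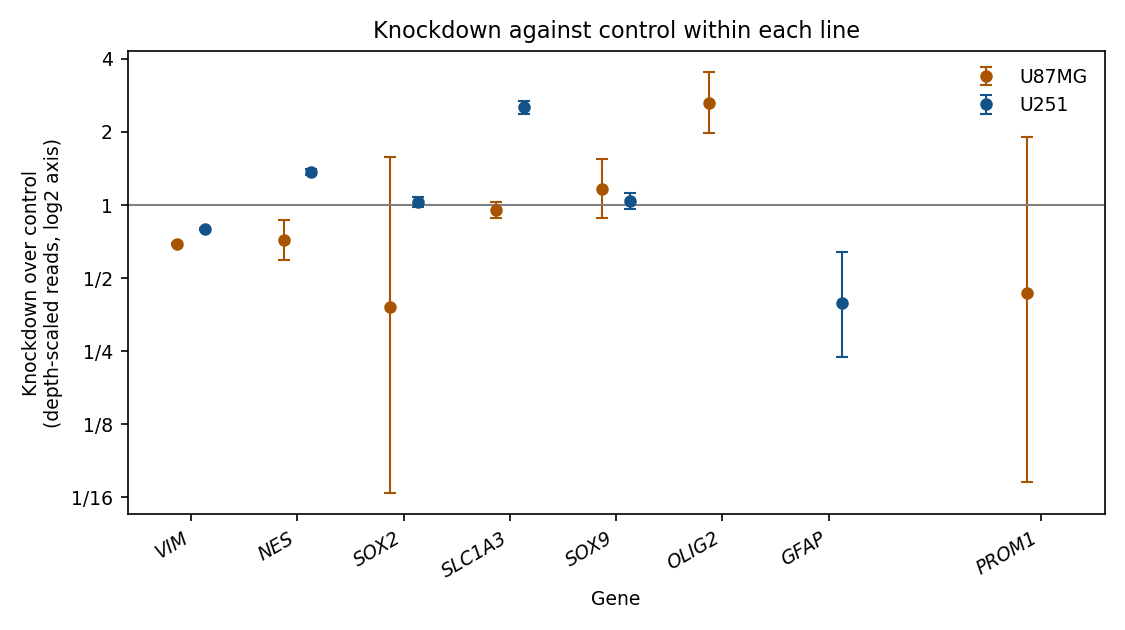
Knockdown over control ratio of depth-scaled reads (vertical, log2 axis) for members with at least 10 reads over both libraries of a line, in U87MG and U251, with bars for 95% Clopper-Pearson intervals that cover counting error only. VIM lies below 1 in both lines, SLC1A3 is at 2.53 in U251 and 0.956 in U87MG, and NES lies on opposite sides of 1.

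The knockdown libraries were then set against the controls. None of the 7 members passed limma with the cell line as a block (2 libraries per arm). An unadjusted p under 0.05 was found for 1 of them, VIM, and for 3400 of all 16098 genes. Over all genes 3.76% passed, 1.16% higher and 2.61% lower in the knockdown. The median log2 ratio of the 7 members was -0.06 in U87MG and 0.04 in U251, beside -0.05 and -0.00 for all genes tested. Within a line there is 1 library per arm and no test. On the log2(RPKM + 1) scale, no tested member differed 2-fold in U87MG, where 5.91% of all genes did, and SLC1A3 was the 1 member that did in U251, where 2.88% did.

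VIM had the lower level in the knockdown library of each line, with 1158 against 1675 RPKM in U87MG, and 1065 against 1341 RPKM in U251. The knockdown level over the control level came to 0.691 in U87MG (0.685 to 0.697) and 0.794 in U251 (0.786 to 0.802). Both knockdown libraries lay below both controls. The share of all genes without overlap between the arms was not counted, so this adds no support. Across the lines limma gave -0.43 ± 0.13, with an unadjusted p of 0.0095 and an adjusted p of 0.11. The estimate was between -0.57 and -0.36 under the alternatives in scaling, filter and pseudocount.

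SLC1A3 and NES had ratios on opposite sides of 1 in the lines, though the counting interval of SLC1A3 in U87MG includes 1. SLC1A3 went from 13.5 to 34.2 RPKM in U251, a read ratio of 2.53 (2.38 to 2.69), and from 13.4 to 12.8 RPKM in U87MG, a ratio of 0.956 (0.888 to 1.03). Across the lines limma gave 0.61 ± 0.29 (adjusted p = 0.28). NES went from 61.1 to 83.7 RPKM in U251, a read ratio of 1.37 (1.33 to 1.41), and from 1.79 to 1.29 RPKM in U87MG, a ratio of 0.719 (0.592 to 0.871). Its limma estimate was 0.08 ± 0.21 (adjusted p = 0.87). Whether the lines differed in these responses was not tested, since that comparison has no residual degree of freedom.

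The transcription factors SOX2 and SOX9 had estimates close to 0. In U251, where they were well detected, the knockdown to control read ratio was 1.03 for SOX2 (0.982 to 1.08) and 1.04 for SOX9 (0.966 to 1.12). In U87MG the ratio was 1.17 for SOX9 (0.883 to 1.55), and for SOX2, on 3 against 8 reads, 0.380 (0.0649 to 1.58). These counting intervals all include 1, and a difference in SOX2 within U87MG was not detectable at this depth. The limma estimates were -0.03 ± 0.16 for SOX2 (adjusted p = 0.94) and 0.08 ± 0.16 for SOX9 (adjusted p = 0.82).

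OLIG2 and GFAP each differed between the arms beyond counting error in the line where they were detected. OLIG2 went from 67 to 174 reads in U87MG, a ratio of 2.63 (1.97 to 3.54), and stood at 1 and 2 reads in U251, a ratio of 1.80 (0.0935 to 106). GFAP went from 57 to 25 reads in U251, a ratio of 0.394 (0.236 to 0.641), and stood at 1 and 2 reads in U87MG. Neither passed across the lines, with limma estimates of 0.43 ± 0.27 for OLIG2 (adjusted p = 0.40) and -0.31 ± 0.27 for GFAP (adjusted p = 0.56). The read ratio of OLIG2 in U87MG exceeds 2, but on the log2(RPKM + 1) scale its ratio there was 0.84. PROM1 gave 0.434 in U87MG (0.0724 to 1.90) and 0.299 in U251 (0.0057 to 3.73), with no difference detectable.

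Genes related to the members by function were then compared, from 10 lists that together held 153 genes, 74 of them measured. Between the arms 2 of the 74 were higher and 1 was lower in the knockdown by limma, against 3.76% of all genes. Between the lines 13 were higher in U87MG and 36 in U251, against 21.6% and 27% of all genes. Of the 74, 18 reached 1 RPKM only in U251 and 6 only in U87MG, and so entered through the line where they are high, as 15 of the 36 and 3 of the 13 did. Of all 16098 genes, 1591 and 1254 entered in this way, among them 1108 of the 4347 higher in U251 and 811 of the 3482 higher in U87MG. The counts between the lines below are therefore a description of the tested genes and not a property of the lists. The 3 calls between the arms were made with a filter on low values and the cell line as a block, and without the filter or without the block limma called 0 genes (3124 and 262 at an unadjusted p under 0.05). List medians of the knockdown log2 ratio lay between -0.16 and 0.10 in U87MG and between -0.23 and 0.39 in U251, beside -0.05 and -0.00 for all genes.

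**Figure D3:**
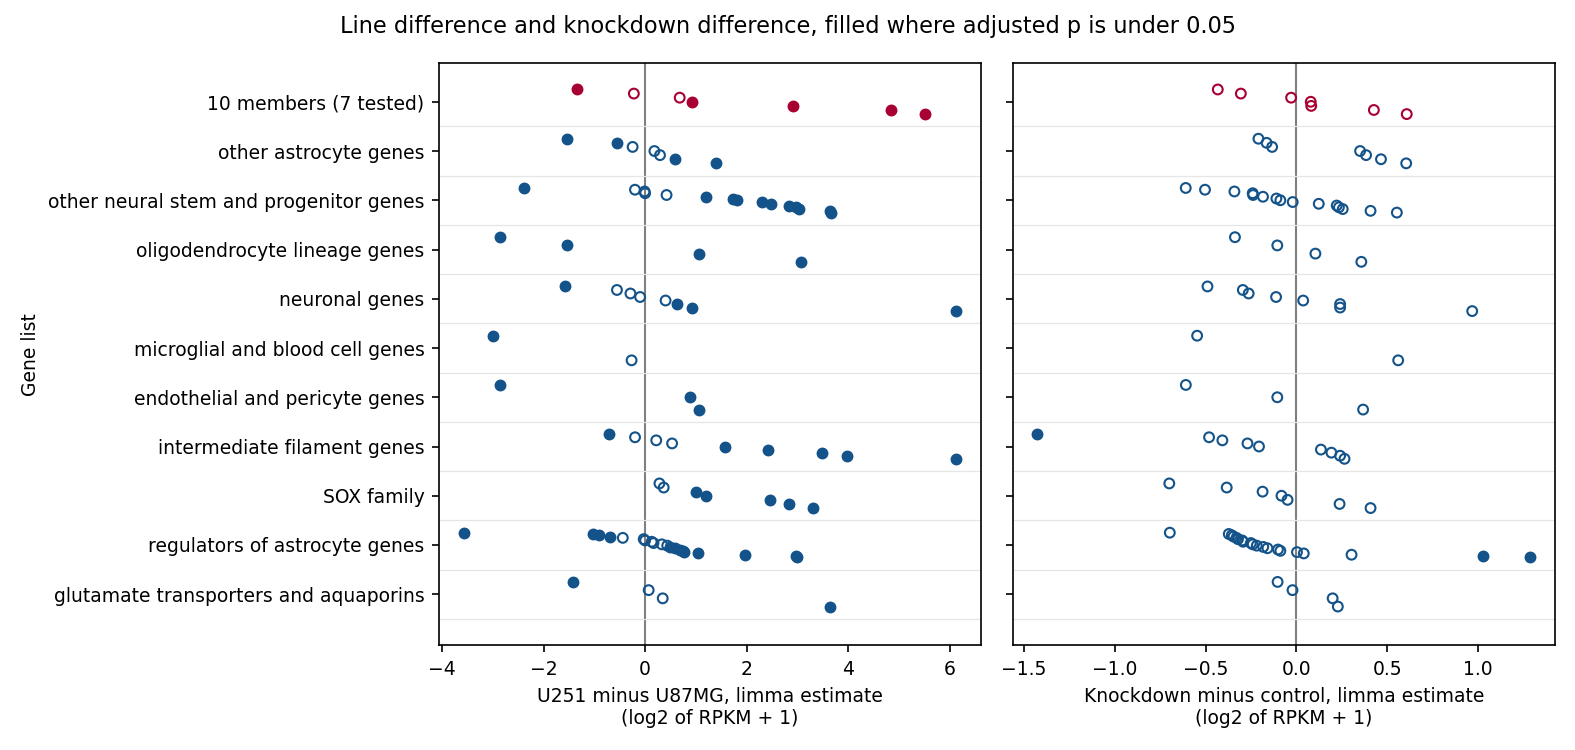
Limma estimates on the log2(RPKM + 1) scale, U251 minus U87MG on the left and knockdown minus control on the right, with 1 point per tested gene of the members and of each list, filled where the adjusted p is under 0.05. The neural stem and progenitor list has 10 filled points to the right of 0 and 1 to the left between the lines, and 3 points are filled between the arms, LMNB1, HEY1 and ATF3.

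The list of other neural stem and progenitor genes had 10 of 15 measured genes higher in U251 and 1 higher in U87MG, against 27% and 21.6% of all genes. Among the 10 measured genes at 1 RPKM or more in both lines, 5 were higher in U251, and the other 5 that were higher there (ITGA6, ID4, SOX3, FABP7 and NR2E1) passed the filter through U251 alone. ITGA6, the laminin receptor subunit alpha 6, was at 0.111 and 0.106 RPKM in U87MG, compared with 10.7 and 15.3 RPKM in U251 (3.64 ± 0.19, limma adjusted p = 7.8e-06). POU3F2, a neural POU factor, was at 1.75 and 1.94 RPKM in U87MG, compared with 23.4 and 21.2 RPKM in U251 (3.03 ± 0.17). ID4, an inhibitor of basic helix-loop-helix factors, was listed at 0 in both U87MG libraries and stood at 7.59 and 17.5 RPKM in U251. The gene higher in U87MG was HMGA2, a chromatin protein of fetal cells named here after its values were seen, at 75.2 and 91.5 RPKM against 13.7 and 16.3 RPKM. None of the 15 passed between the arms.

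The SOX family, with 7 of 15 listed genes measured, had 5 higher in U251 and none higher in U87MG, against 27% and 21.6% of all genes. Of those 5, however, 4 (SOX3, SOX4, SOX18 and SOX21) passed the filter through U251 alone. SOX4 was at 0.709 and 0.213 RPKM in U87MG, compared with 18.4 and 9.36 RPKM in U251 (3.30 ± 0.18, limma adjusted p = 9.2e-06). SOX3, a close relative of SOX2, was listed at 0 in both U87MG libraries and stood at 4.34 and 8.42 RPKM in U251. SOX4 was lower in the knockdown library of each line but did not pass (-0.70 ± 0.18, limma adjusted p = 0.082). SOX2-OT, a noncoding gene whose span includes SOX2, was at 0.321 and 0.217 RPKM in U87MG, compared with 7.24 and 11.5 RPKM in U251.

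The other intermediate filament genes had 5 of 9 measured members higher in U251 and 1 higher in U87MG, against 27% and 21.6% of all genes. NEFL, SYNM and KRT18, which were higher in U251, passed the filter through U251 alone. NEFL, the light neurofilament chain of neurons, was at 0.00990 and 0.0200 RPKM in U87MG, compared with 59.6 and 82.9 RPKM in U251 (6.13 ± 0.18, limma adjusted p = 7.1e-07). SYNM, encoding synemin, which assembles with vimentin, was at 0.274 and 0.188 RPKM in U87MG, compared with 14.4 and 11.5 RPKM in U251 (3.49 ± 0.17). LMNB1, encoding the nuclear lamin B1, was the list's 1 gene called lower in the knockdown (-1.43 ± 0.28, limma adjusted p = 0.038). It went from 44.0 to 9.83 RPKM in U87MG cells, and in U251 cells from 155.9 to 89.4 RPKM. The call was lost without the filter on low values or without the cell line as a block, where limma called 0 of all genes. Its call under the other alternatives was not examined.

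Of the other astrocyte genes, 7 of 20 listed were measured. Of these, 2 were higher in each line, against 27% of all genes in U251 and 21.6% in U87MG, and none passed between the arms. GJA1, encoding the astrocytic gap junction protein connexin 43, was at 17.4 and 25.8 RPKM in U87MG, compared with 28.1 and 37.1 RPKM in U251, higher in U251 by 0.59 ± 0.16 (limma adjusted p = 0.020). CLU, encoding the secreted chaperone clusterin, was at 55.8 and 92.3 RPKM in U87MG, compared with 20.1 and 28.7 RPKM in U251, with -1.54 ± 0.16 for U251 minus U87MG. GLUL, glutamine synthetase, was at 11.7 and 11.1 RPKM in U87MG, compared with 8.25 and 6.75 RPKM in U251. Of the 7 genes used as astrocyte markers, which include GFAP, SLC1A3, S100B and AQP4, 2 reached 1 RPKM in each library, SLC1A3 and GJA1, and GFAP did so besides in the U251 control. Of the 8 genes used as neural progenitor markers, which include VIM and SOX9, 3 and 4 reached 1 RPKM in the U87MG libraries and 6 in each U251 library. Of the 6 neuronal markers, 4 reached it in every library, TUBB3 and MAP2 among them, and the 6 summed to 58.4 to 105 RPKM. Of the 7 oligodendrocyte lineage markers, 2 reached it in the U87MG knockdown and 1 in each other library. The shares of the marker sets were not compared by a test.

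Regulators of astrocyte genes, which include factors of the JAK-STAT, Notch and NFI families, held the 2 list genes called higher in the knockdown. These were 2 of 20 measured regulators, against 1.16% of all genes. The list was chosen with earlier results of these data known, so this count supports nothing by itself. Both calls were lost when low values were left unfiltered, and also when the cell line term was dropped. Limma then called 0 of all genes, so the loss is not particular to these 2. Their calls under the other alternatives were not examined. The median knockdown log2 ratio of the list was -0.16 in U87MG and -0.22 in U251. ATF3, a stress-induced transcription factor, went from 51.3 to 154 RPKM in U87MG cells, and in U251 cells from 4.36 to 9.74 RPKM (1.29 ± 0.19, limma adjusted p = 0.021). HEY1, a Notch target that represses transcription, went in the same order from 1.75 to 4.49 RPKM and from 3.32 to 7.98 RPKM (1.03 ± 0.17, limma adjusted p = 0.024). JAK2, the kinase upstream of STAT3, was lower in both knockdown libraries and did not pass (-0.70 ± 0.16, limma adjusted p = 0.060). Between the lines 9 of the 20 measured regulators were higher in U251 and 4 in U87MG, against 27% and 21.6% of all genes, and all 13 reached 1 RPKM in both lines. NFIX, of the NFI family that acts on glial genes, was at 4.71 and 3.10 RPKM in U87MG, compared with 40.6 and 34.4 RPKM in U251 (2.99 ± 0.17), and HES1, a Notch target, at 1.07 and 1.63 against 21.1 and 14.3 RPKM.

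**Figure D4:**
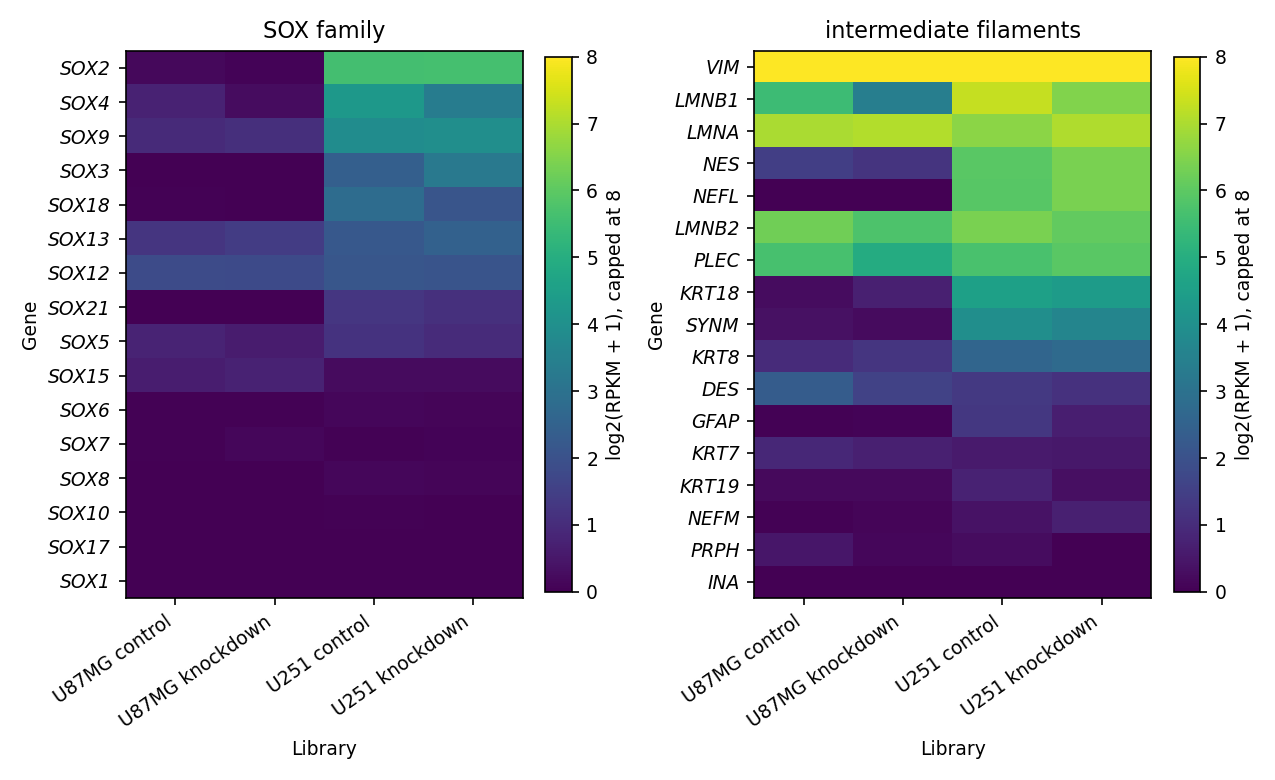
Heat maps of log2(RPKM + 1), with the color scale capped at 8, for the SOX family and the intermediate filament genes including the members, 1 row per gene and 1 column per library. SOX2, SOX4, NES, NEFL and SYNM are brighter in both U251 columns than in both U87MG columns, and VIM is at the cap in all 4.

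Among glutamate transporters and aquaporins, 4 of 18 listed genes were measured. SLC1A1, the neuronal glutamate transporter, was listed at 0 in U87MG and stood at 11.7 and 11.3 RPKM in U251, without the difference between the U251 libraries seen for SLC1A3. SLC1A5, a neutral amino acid transporter of the same family, was at 70.1, 68.6, 62.7 and 84.9 RPKM in the order U87MG control, U87MG knockdown, U251 control and U251 knockdown. No gene of this list passed between the arms.

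The oligodendrocyte list, to which OLIG2 is related, was split between the lines, with 2 of 4 measured genes higher in each. Over all genes 27% were higher in U251 and 21.6% in U87MG. Of the 4, PDGFRA passed the filter through U251 alone, and CSPG4 and MBP through U87MG alone, so these counts describe the tested genes only. CSPG4, the NG2 proteoglycan of oligodendrocyte precursors and pericytes, was at 6.82 and 6.13 RPKM in U87MG, compared with 0.0625 and 0.00863 RPKM in U251, the same order as OLIG2. PDGFRA, the growth factor receptor of those precursors, had the opposite order, at 0.0578 and 0.0761 RPKM in U87MG, compared with 6.06 and 10.4 RPKM in U251. Neuronal genes had 3 of 8 measured members higher in U251, NEFL among them, and 1 higher in U87MG, counts too small to set apart from the 27% and 21.6% of all genes. MAP2, the dendritic microtubule protein, was higher in both knockdown libraries and did not pass (0.97 ± 0.22, limma adjusted p = 0.054). Of the other measured neuronal genes, TUBB3, SYT1 and SNAP25 were lower in both knockdown libraries. NEFL, on 1 and 2 reads in U87MG, and SYP were higher in both. ENO2 and GAD1 were higher in the U87MG knockdown and lower in the U251 knockdown, and none of these passed. Microglial and blood cell genes had 2 of 10 measured and endothelial and pericyte genes 3 of 9. The microglial gene higher in U87MG was CD68, at 62.4 and 111 RPKM against 8.52 and 10.7 RPKM.

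The gene nearest to each member over the 4 libraries, by Euclidean distance of centred log2(RPKM + 1) among 11815 genes, was COL4A1 for SOX2 (0.16), GPC4 for NES (0.29), CLEC2B for SOX9 (0.06), PSPN for SLC1A3 (0.23), RBMS3 for GFAP (0.05), FAM49A for OLIG2 (0.03) and MAGEE1 for VIM (0.02). Over so few libraries a near match is common for a flat profile. VIM had 337 genes within a distance of 0.25, while SOX2 had 6, SLC1A3 had 1 and NES had none.

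The positions of the members bear on how their reads could have been assigned, since no source used here gives the strand setting of the counting. In GRCh38 (GENCODE 29), VIM lies at chr10:17228259-17237593, plus strand, and its exons overlap those of the antisense gene VIM-AS1, which was at 1.09 to 2.44 RPKM. GFAP lies at chr17:44903161-44916937, minus strand, and its exons overlap those of CCDC103 on the opposite strand, at 1.25 to 1.78 RPKM. Of the 31-base words of a GFAP transcript 34.9% occur in another annotated gene, and 41.4% of those of a VIM transcript, led by these overlapping genes. These transcripts of 6538 and 2135 bases differ from the shortest gene lengths that gave whole reads (1543 and 2612 bases). The shares therefore need not hold for the models that were counted. Where a counted GFAP exon overlaps CCDC103, their reads cannot be told apart. For NES (chr1:156668763-156677397), SOX2 (chr3:181711924-181714436), SOX9 (chr17:72121020-72126420), SLC1A3 (chr5:36606355-36688334) and OLIG2 (chr21:33025845-33029196) the share was at most 3.8%.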

How the data were processed

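The data are 4 libraries, 1 per cell line and arm, grouped by their titles. The deposited values are RPKM, computed by the authors. Bowtie 0.12.2 and the build hg19 are named in the labels, per the submitters' processing notes. Not given in the sources used here: the counting program, the annotation, the strand setting and the treatment of reads with several matches.

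Whole reads were recovered from the RPKM steps. Of 695 small RNA genes, 535 gave the same library total, and 27928 of 27973 genes above 0 (99.8%) came out whole within 0.01 reads. For NES, SOX2, SOX9 and SLC1A3 the recovered gene length equals a GENCODE transcript length. For the others the smallest fitting whole numbers were taken, so their read counts, GFAP and OLIG2 among them, are the lowest that fit. Multiples of these counts would fit as well and would change the counting intervals. Intervals are 95% exact Clopper-Pearson intervals of read shares, scaled by depth.

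Tests used limma 3.58.1 in R 4.3.3 on log2(RPKM + 1), with cell line and arm as terms and an intensity trend, two-sided, adjusted by Benjamini-Hochberg over 16098 genes with at least 1 RPKM in 1 library. Each gene had 1 residual degree of freedom. The replicate block is the cell line, which carries both arms. No count model was used, since the unit is RPKM. Alternatives were other pseudocounts (0.1, 0.5), filters (none, 5 RPKM in 1 library, 0.5 RPKM for detection), scalings, no trend and each library left out. The block was also dropped between the arms, and the arm term between the lines. The steps were tested on simulated data.

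The members and gene lists were chosen with earlier results of these data known. The genes named were all members, SRSF1, up to 3 genes per list and comparison by size of estimate at 5 RPKM or more in 1 library, and the nearest gene to each member. HMGA2, FABP7, NR2E1, SOX21, SNAP25, SYP, GAD1, MBP, SOX2-OT, VIM-AS1 and CCDC103 fall outside this rule and were named after their values were seen. Positions are from GENCODE 29 (GRCh38), with none converted from hg19, and promoter windows from RefSeq, which held 6 of the 10 members. Tables and figures were made in Python 3.11.15 (scipy 1.17.1, pandas 2.3.3, numpy 2.4.6, matplotlib 3.10.9).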

Additional observations from a re-analysis of the deposited data

Results flagged for a closer look

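The sign of the knockdown minus control difference on the log2(RPKM + 1) scale was opposite in the 2 lines for 4 members. Whether the lines differed was not tested, because that comparison has no residual degree of freedom. SLC1A3 had a log2 ratio of -0.06 in U87MG and 1.28 in U251. NES had -0.29 in U87MG and 0.45 in U251. For GFAP the values were 0.04 in U87MG, on 1 and 2 reads, and -0.65 in U251. For SOX2 they were -0.10 in U87MG, on 8 and 3 reads, and 0.04 in U251.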

How the results depend on the processing

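Between the arms, no member was called under any alternative. Over all genes 606 were called (186 higher, 420 lower), against 191 after trimmed-mean rescaling (85 higher, 106 lower) and 260 without the intensity trend. Without a filter on low values limma called 0, with 3124 at an unadjusted p under 0.05, and without the replicate block 0, with 262. With a library left out the blocked fit has no residual degree of freedom, so leave-one-out counts use no block, which was chosen after seeing the data, and limma then called 0 whichever library was left out (59 to 299 at an unadjusted p under 0.05). Leaving out a library of one line leaves the ratio of the other line, so the estimate ranged from -0.10 to 0.043 for SOX2, -0.65 to 0.035 for GFAP, -0.29 to 0.45 for NES, -0.060 to 1.28 for SLC1A3, 0.016 to 0.84 for OLIG2 and 0.051 to 0.11 for SOX9.

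Between the lines, 5 members were called, against 3 without a filter on low values and 4 without the arm as a covariate. At 5 RPKM 4 were called (GFAP and OLIG2 do not enter, and SLC1A3 passes). Leaving out a library gave 3 to 4. SOX2, NES and SOX9 were called each time. GFAP was lost without the U87MG control (limma adjusted p = 0.16), the U87MG knockdown (0.18) or the U251 control (0.057), and OLIG2 without the U251 control (0.23) or the U251 knockdown (0.22). Over all genes 7829 were called, against 4286 without a filter, 4442 without the replicate block and 885 (without the U251 control), 1001 (U251 knockdown), 1603 (U87MG knockdown) and 2183 (U87MG control) with a library left out. The causes were not tested. Depth limits GFAP and SOX2 in U87MG, OLIG2 in U251, and S100B, PROM1 and AQP4 throughout.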
